A study of Mus musculus with 16 samples.

Results

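The genes described here are 32 enzymes and regulators of cholesterol and fatty acid synthesis, picked by name as the targets and controllers of the SREBP programme. They comprise 18 genes of the sterol branch, 8 genes of the fatty acid branch and 6 regulators. All 32 were found among the 32989 gene identifiers measured, and all 32 were among the 19049 genes that had a mean of at least 5 counts per library and were therefore tested.

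Hair follicle stem cell (HFSC) organoids, which are 3D cultures that hold HFSCs together with their progeny, were grown for 2 weeks from epidermal cells of 4 C57BL/6J mice. The donors came from either sex with follicles in the resting phase, around weaning or as young adults by the methods, and the labels do not say which for each donor. Organoids either stayed untreated or spent 72 h in N1-acetylspermidine (N1-AcSpd), the acetylated form of the polyamine spermidine. The labels state no dose and name no solvent control. Sorting on α6 integrin and CD34 then separated the progenitors (α6+/CD34-) from the HFSCs (α6+/CD34+), so that each mouse gave 1 library to each of 4 groups (untreated CD34-, untreated CD34+, N1-AcSpd CD34- and N1-AcSpd CD34+). All groups shared the same medium, with serum, insulin, hydrocortisone, EGF, Y27632, VEGF and FGF2. RNA was read as 3′ tags with unique molecular identifiers (UMIs), each of which marks 1 molecule. The comparisons asked how HFSCs differ from progenitors and what N1-AcSpd changes in each.

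Cells make cholesterol from acetyl-CoA through mevalonate, isoprenoids, squalene and lanosterol, and make fatty acids from the same acetyl-CoA through malonyl-CoA, followed by elongation and desaturation. The transcription factor SREBP2, encoded by Srebf2, mainly drives the sterol enzymes, and SREBP1, encoded by Srebf1, mainly drives the fatty acid enzymes. When sterols are plentiful, INSIG proteins hold the sterol sensor SCAP, and with it the SREBP precursors, in the endoplasmic reticulum, so that the whole set of targets falls together. In the epidermis, cholesterol and fatty acids are building blocks of the lipid barrier that differentiating keratinocytes deposit.

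The 16 libraries held 15480075 to 29074855 UMIs. The level of a gene is given as CPM, its UMI count scaled to a common library total, after correction of the library totals by the trimmed mean of M-values (TMM), and the precision that these depths give covers counting error only. Cd34 averaged 3.19 CPM in untreated and 3.26 CPM in N1-AcSpd CD34- cells, against 49.98 and 53.3 CPM in the CD34+ cells, in the direction of the sort. The basal keratinocyte genes Krt5 and Krt14 were abundant in all 4 groups, and the fibroblast list summed to at most 1.22 CPM, the adipocyte list to at most 2.35 CPM and the immune list to at most 5.91 CPM in any library. The melanocyte list summed to 27.98 to 35.8 CPM, mostly from Pmel and Mitf, with the pigment cell genes Mlana and Dct under 1 CPM in every group mean.

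The windows around the start sites of these genes are shown first because members moved together across libraries. RefSeq windows (GRCm38.p6, 250 bases before to 50 bases after a start site) were at hand for 25 of the 32 members, namely 15 of the sterol branch, 5 of the fatty acid branch and 5 regulators. TCACNCCAC, 1 form of the sterol regulatory element to which SREBPs bind, was searched on both strands. It matched only Hmgcs1 among the 25, against 1.44% of the 27025 genes with a window. The other 7 members (Fdps, Fdft1, Sqle, Scd1, Scd2, Fads1 and Stard4) had no window and were not searched. The CCAAT box, read by the SREBP partner NF-Y, matched 14 of 15 sterol members, 2 of 5 fatty acid members and 4 of 5 regulators, against 41.1% of all genes. The GC box GGGCGG, read by Sp1, matched 14 of 15, 2 of 5 and 5 of 5, against 38.2% of all genes, and CACGTG matched 5 of the 25 members, against 8.09%. None of the 4 patterns contains another. The 27025 genes with a window were not limited to the 19049 tested, whereas all members were tested. A share among tested genes is not given, so the excess cannot be read as particular to these members. These counts describe letters in windows and give neither occupancy nor control.

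Below, stretches of 29 bases are written 5′ to 3′ along the gene, with the match in capitals (ATTGG is CCAAT on the other strand). Hmgcs1 is shown for its regulatory element and CCAAT box, and the others for the CCAAT match nearest the start site. The genes tried were a chosen set of regulators and members, not every gene with a match. A stretch was kept where no GENCODE exon of the gene overlapped it.
Hmgcs1, chr13:119690204-119690232, plus strand: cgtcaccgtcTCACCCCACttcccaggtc
Hmgcs1, chr13:119690294-119690322, plus strand: tccccgcctctcATTGGctgaaagcggat
Mvk, chr5:114444207-114444235, plus strand: ttaatgtttgacCCAATctgtaaaggagc
Hsd17b7, chr1:169969262-169969290, minus strand: tgccgagtcgcgATTGGcgggcctaacgc
Sc5d, chr9:42264308-42264336, minus strand: cgccggctgctgATTGGccggctgcctgc
Ebp, chrX:8193551-8193579, minus strand: atccctgtactgATTGGttcgtcagattc
Fasn, chr11:120824590-120824618, minus strand: cctcggtgtccaATTGGtttcgatgtgga
Srebf1 (internal start site), chr11:60210485-60210513, minus strand: gcgcggctgctgATTGGccatgtgcgctc
Srebf2, chr15:82147122-82147150, plus strand: cttcgcgcgccgATTGGctaatgcaagcc
Insig1, chr5:28071184-28071212, plus strand: cgccctcctcccATTGGctccggcggcct
Insig2, chr1:121332602-121332630, minus strand: tcaccttccacaCCAATctatattaaaat
The CCAAT match ended 40 bases before the start site in Hmgcs1, 45 in Mvk, 68 in Hsd17b7, 19 in Sc5d, 50 in Ebp and 54 in Fasn. Among the regulators it ended 25 bases before the internal start site of Srebf1, 130 in Srebf2, 211 in Insig1 and 24 in Insig2.

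In untreated organoids, most sterol genes were lower in CD34+ HFSCs than in CD34- progenitors, whereas the fatty acid genes were divided. By edgeR's quasi-likelihood test over all genes (n = 4 per group, Benjamini-Hochberg adjusted p under 0.05), 10 of 18 sterol members were lower and 1 was higher, and the median log2 fold change (CD34+ over CD34-) was -0.47. Of the 8 fatty acid members, 3 were lower and 1 was higher, with a median of 0.01 whose sign depended on the method and the libraries kept. None of the 6 regulators was called, and their median was -0.07. In all, 13 of 32 members were lower, where the share of all tested genes was 16.1%, and 2 of 32 were higher, where it was also 16.1%. The median over all genes was 0.02.

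**Figure D1:**
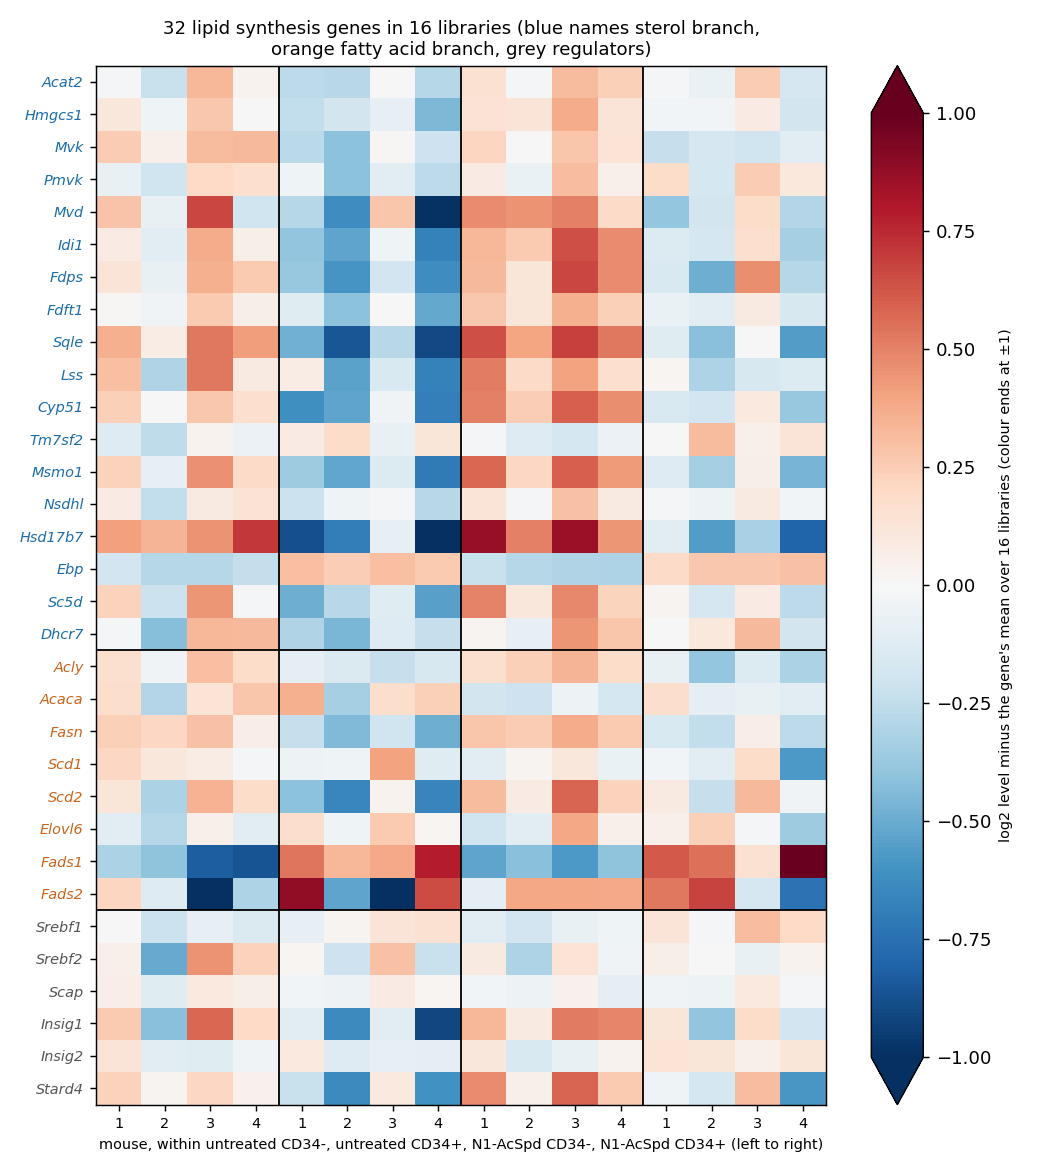
Level of each of the 32 members (rows) in each of the 16 libraries (columns, mice 1 to 4 within each group), as the log2 level minus the gene's own mean over the 16 libraries. Most sterol rows are red in both CD34- blocks and blue in the untreated CD34+ block, and Ebp and Fads1 show the reverse. For many genes the column of mouse 3 is the reddest or least blue of its block.

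The largest difference in the sterol branch was that of Hsd17b7, a keto-reductase that acts while the C-4 methyl groups of the sterol are removed. It stood at 5.98, 5.69, 6.15 and 7.36 CPM in untreated CD34- cells of mice 1 to 4 and at 2.39, 2.74, 4.23 and 2.00 CPM in their CD34+ cells. With N1-AcSpd the values were 8.26, 6.39, 8.18 and 6.11 CPM in CD34- cells and 4.12, 3.02, 3.56 and 2.53 CPM in CD34+ cells. Every CD34+ library lay below every CD34- library, in both conditions. The log2 fold change was -1.15 ± 0.21 (SE, adjusted p = 0.000917) in untreated cells and -1.12 ± 0.21 (adjusted p = 0.000836) with N1-AcSpd, from edgeR with n = 4.

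Sqle, the squalene epoxidase that opens the path from squalene to the sterol ring, followed. In untreated cells it was at 54.5, 44.7, 61.3 and 56.8 CPM in the CD34- fraction and at 30.4, 23.5, 35.1 and 22.7 CPM in the CD34+ fraction. After N1-AcSpd it was at 66.5, 56.0, 68.5 and 61.3 CPM and at 39.2, 31.8, 42.5 and 28.95 CPM. The fractions did not overlap in either condition, and the log2 fold changes were -0.96 ± 0.15 (SE, edgeR adjusted p = 0.000348, n = 4) and -0.82 ± 0.15 (adjusted p = 0.000906).

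Msmo1 and Cyp51 catalyse steps of lanosterol demethylation. Msmo1, the C-4 methyl oxidase, was at 54.8, 44.1, 64.2 and 53.3 CPM in untreated CD34- cells and at 36.5, 32.6, 42.5 and 28.6 CPM in untreated CD34+ cells. Under N1-AcSpd it reached 69.6, 54.1, 71.1 and 62.8 CPM in CD34- cells and 42.8, 37.1, 48.8 and 33.9 CPM in CD34+ cells. The CD34+ cells were lower in each mouse, without overlap, at -0.63 ± 0.15 in untreated and -0.66 ± 0.15 in N1-AcSpd organoids (log2 fold change ± SE, edgeR adjusted p = 0.00490 and 0.00303, n = 4).

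Cyp51, the C-14 demethylase, was at 28.3, 24.0, 28.98 and 27.0 CPM in untreated CD34- cells and at 15.7, 16.6, 23.4 and 14.9 CPM in untreated CD34+ cells. With N1-AcSpd its levels were 34.1, 28.5, 36.5 and 33.2 CPM in CD34- cells and 21.7, 21.1, 25.7 and 18.4 CPM in CD34+ cells. Again the fractions did not overlap, and the log2 fold changes were -0.62 ± 0.14 and -0.61 ± 0.14 (edgeR adjusted p = 0.00357 and 0.00347, n = 4). The untreated call was lost without mouse 1 (adjusted p = 0.0558).

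The other lower sterol members span the pathway. At its start, the HMG-CoA synthase Hmgcs1 changed by -0.33 and the mevalonate kinase Mvk by -0.46 on the log2 scale. Among the isoprenoid enzymes, the isopentenyl diphosphate isomerase Idi1 changed by -0.50, the farnesyl diphosphate synthase Fdps by -0.61 and the squalene synthase Fdft1 by -0.33. Late in the pathway, the sterol C-5 desaturase Sc5d changed by -0.48. These 6 had edgeR adjusted p-values from 0.00132 for Mvk to 0.0285 for Fdft1 (n = 4), and each was lower in 4 of 4 mice.

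Ebp, the sterol isomerase that shifts the ring double bond, went the other way. It stood at 70.4, 65.9, 66.0 and 68.2 CPM in untreated CD34- cells and at 98.9, 95.5, 99.0 and 96.6 CPM in untreated CD34+ cells. The N1-AcSpd values were 69.1, 66.0, 65.1 and 64.8 CPM against 92.0, 97.2, 96.9 and 98.4 CPM. The fractions did not overlap, and the SE was the smallest of the sterol members, with log2 fold changes of 0.53 ± 0.03 (edgeR adjusted p = 2.56e-07, n = 4) and 0.54 ± 0.03 (adjusted p = 1.52e-07). Among the members not called, Tm7sf2, a sterol C-14 reductase, had a log2 fold change of 0.18, and the remaining 6 lay between -0.57 for the decarboxylase Mvd and -0.16 for the dehydrogenase Nsdhl.

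**Figure D2:**
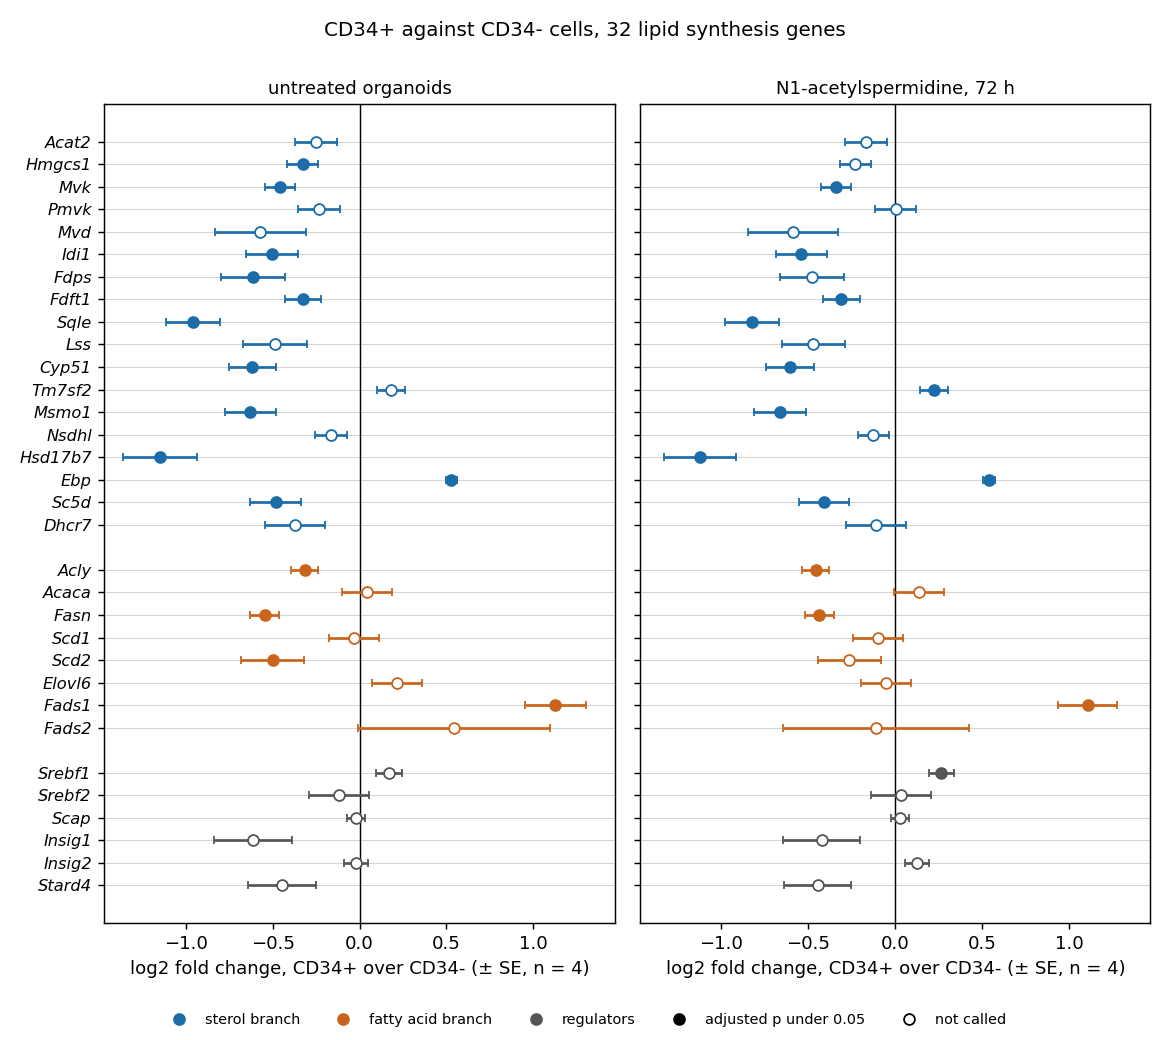
Log2 fold change of CD34+ over CD34- cells (x axis, bars are ± SE, n = 4 mice) for each member (y axis) in untreated (left) and N1-AcSpd (right) organoids. Filled points passed an adjusted p of 0.05; the sterol members lie mainly left of 0, with Ebp at 0.53 and 0.54, and the fatty acid members lie on both sides, with Fads1 at 1.13 and 1.10.

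The fatty acid branch did not move in 1 direction. Fasn, the fatty acid synthase, was lower in HFSCs, as were Acly, which supplies cytosolic acetyl-CoA from citrate (log2 fold change -0.32), and Scd2, a stearoyl-CoA desaturase (-0.50). Fasn levels were 16.0, 15.7, 16.7 and 14.3 CPM in untreated CD34- cells and 11.6, 9.98, 11.8 and 9.66 CPM in untreated CD34+ cells. In N1-AcSpd organoids they were 16.5, 16.2, 17.6 and 16.3 CPM and 12.2, 11.4, 14.2 and 11.3 CPM. The highest CD34+ library stayed below the lowest CD34- library of the same condition, and Fasn changed by -0.54 ± 0.08 and -0.44 ± 0.08 (log2 fold change ± SE, edgeR adjusted p = 0.000221 and 0.000966, n = 4).

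Fads1, the delta-5 desaturase of polyunsaturated fatty acids, was higher in HFSCs. It was at 3.74, 3.51, 2.60 and 2.53 CPM in untreated CD34- cells and at 6.83, 5.93, 6.13 and 8.12 CPM in untreated CD34+ cells. N1-AcSpd libraries held 3.22, 3.48, 3.12 and 3.53 CPM in the CD34- fraction and 7.21, 6.89, 5.22 and 9.40 CPM in the CD34+ fraction. No CD34- library reached a CD34+ library, and the log2 fold changes of 1.13 ± 0.17 and 1.10 ± 0.17 (edgeR adjusted p = 0.000235 and 0.000216, n = 4) were the largest increases among the members.

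Fads2, the delta-6 desaturase whose gene neighbours Fads1 on chromosome 19, was near the lower limit of measurement. Its levels were 0.430, 0.319, 0.130 and 0.271 CPM in untreated CD34- cells and 0.740, 0.219, 0.108 and 0.617 CPM in untreated CD34+ cells. With N1-AcSpd they were 0.330, 0.497, 0.494 and 0.492 CPM and 0.557, 0.626, 0.307 and 0.176 CPM. The fractions overlapped in both conditions, and the log2 fold changes of 0.54 ± 0.55 and -0.11 ± 0.53 were no larger than their errors. Acaca (acetyl-CoA carboxylase), Scd1 (a desaturase on the same chromosome as Scd2) and Elovl6 (an elongase) lay at 0.04, -0.03 and 0.22 in untreated cells, and none was called.

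**Figure D3:**
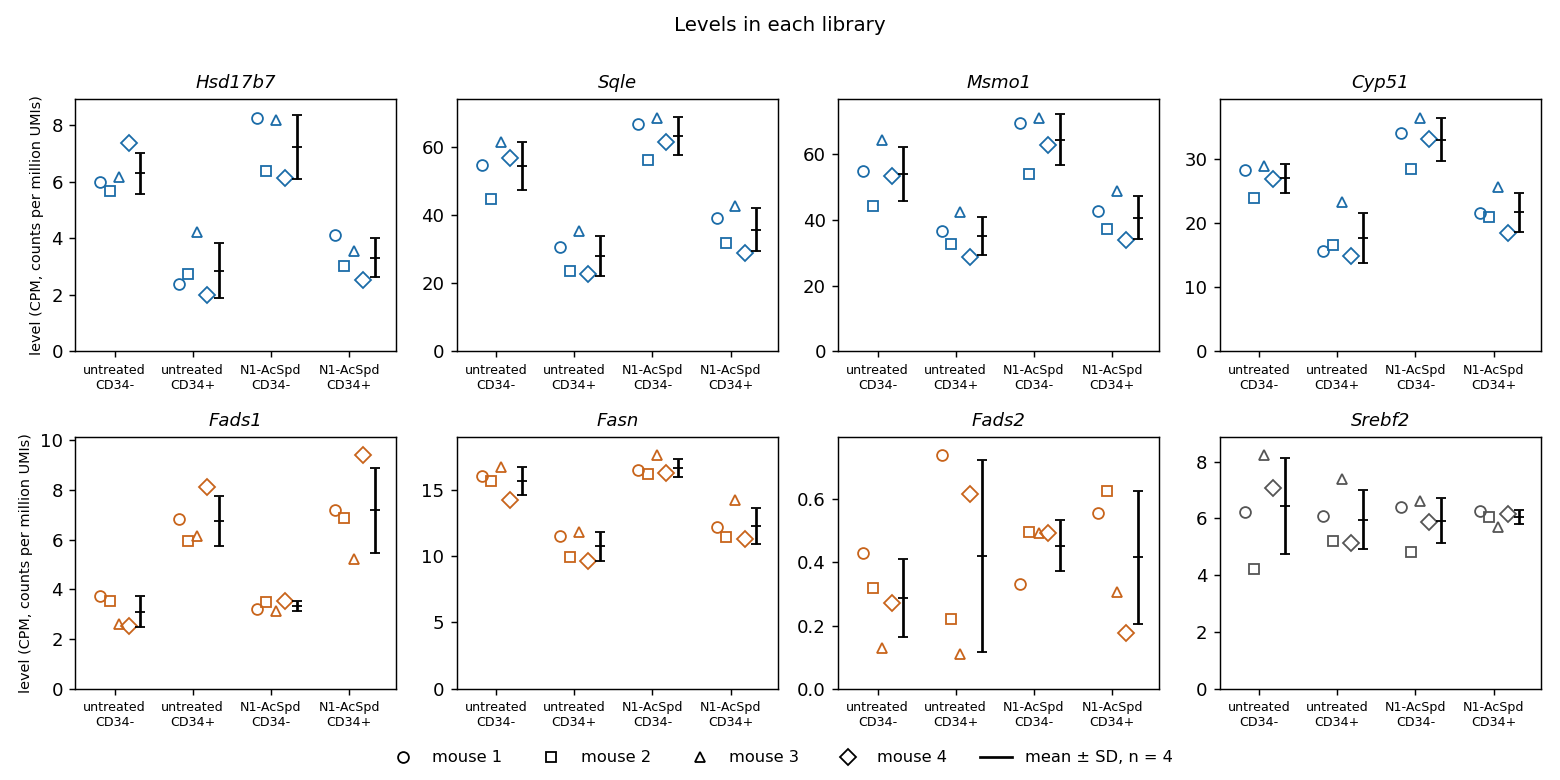
Level in CPM (y axis, from 0, scale set for each gene) of 8 members in each library, by group (x axis) and mouse (symbols), with the mean ± SD of 4 libraries as a bar. Hsd17b7, Sqle, Msmo1, Cyp51 and Fasn are lower and Fads1 is higher in the CD34+ groups without overlap, while the groups of Fads2 and Srebf2 overlap.

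Srebf2, the gene of SREBP2, was at 6.24, 4.22, 8.23 and 7.08 CPM in untreated CD34- cells and at 6.09, 5.21, 7.37 and 5.14 CPM in untreated CD34+ cells. With N1-AcSpd it was at 6.40, 4.83, 6.62 and 5.87 CPM and at 6.28, 6.03, 5.71 and 6.17 CPM. The fractions overlapped, and the log2 fold changes were -0.12 ± 0.17 and 0.03 ± 0.17.

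Srebf1 stood at 14.6, 12.6, 13.9 and 13.2 CPM in untreated CD34- cells and at 13.8, 14.98, 16.0 and 16.3 CPM in untreated CD34+ cells, with overlap. In N1-AcSpd organoids it was at 13.6, 12.9, 14.0 and 14.2 CPM in CD34- cells and at 16.0, 14.5, 18.2 and 16.9 CPM in CD34+ cells, without overlap. The log2 fold change was 0.17 ± 0.07 (edgeR adjusted p = 0.0926, n = 4) in untreated and 0.26 ± 0.07 (adjusted p = 0.0117) in N1-AcSpd cells, and with mouse as a block the untreated value was also called (adjusted p = 0.0471). With N1-AcSpd, Srebf1 RNA was thus slightly higher in the fraction where Fasn and Acly were lower and Fads1 was higher. The other 5 of the 8 fatty acid members were not called there.

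Insig1, itself a sterol-responsive SREBP target, leaned with the sterol enzymes. It was at 5.89, 3.64, 7.36 and 5.64 CPM in untreated CD34- cells and at 4.55, 3.13, 4.55 and 2.57 CPM in untreated CD34+ cells. The N1-AcSpd values were 6.19, 5.22, 7.07 and 6.93 CPM and 5.35, 3.70, 5.58 and 4.29 CPM. The CD34+ library was the lower of the pair in 4 of 4 mice in each condition although the ranges overlapped, at -0.61 ± 0.22 (edgeR adjusted p = 0.0527, n = 4) and -0.42 ± 0.22 (adjusted p = 0.169). With mouse as a block both were called (adjusted p = 0.00788 and 0.0315).

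Insig2, whose expression depends little on SREBPs, was at 14.7, 12.5, 12.4 and 13.1 CPM in untreated CD34- cells and at 14.4, 12.3, 12.7 and 12.6 CPM in untreated CD34+ cells. With N1-AcSpd it was at 14.6, 12.1, 12.8 and 13.8 CPM and at 14.8, 14.6, 14.0 and 14.7 CPM. The fractions overlapped in both conditions (log2 fold changes -0.02 ± 0.07 and 0.12 ± 0.07). Scap differed by -0.02 and 0.03, and the sterol transfer gene Stard4 by -0.45 in both conditions, not called by edgeR without mouse as a block (adjusted p with the block 0.00669 and 0.00694).

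N1-AcSpd organoids gave the same comparison in other libraries of the same mice. There, 10 of 32 members were lower in CD34+ cells, against 16.8% of all genes, and 4 were higher, against 16.5%. The lower ones were the sterol members Mvk (-0.34), Idi1 (-0.54), Fdft1 (-0.31), Sqle, Cyp51, Msmo1, Hsd17b7 and Sc5d (-0.41) and the fatty acid members Acly (-0.46) and Fasn. The higher ones were Tm7sf2 (0.22), Ebp, Fads1 and Srebf1. The median was -0.38 for the sterol branch, -0.11 for the fatty acid branch and 0.03 for the regulators, against -0.01 for all genes.

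Within single mice, the median over the 18 sterol members of the log2 difference between fractions was -0.42, -0.30, -0.37 and -0.56 in untreated and -0.46, -0.26, -0.30 and -0.43 in N1-AcSpd organoids of mice 1 to 4. All 8 of these medians were negative. Over the 8 fatty acid members they were -0.04, -0.13, -0.05 and -0.07 in untreated organoids and 0.17, -0.02, -0.28 and -0.45 in N1-AcSpd organoids, so the sign changed between mice there. The difference between the branches was not tested.

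**Figure D4:**
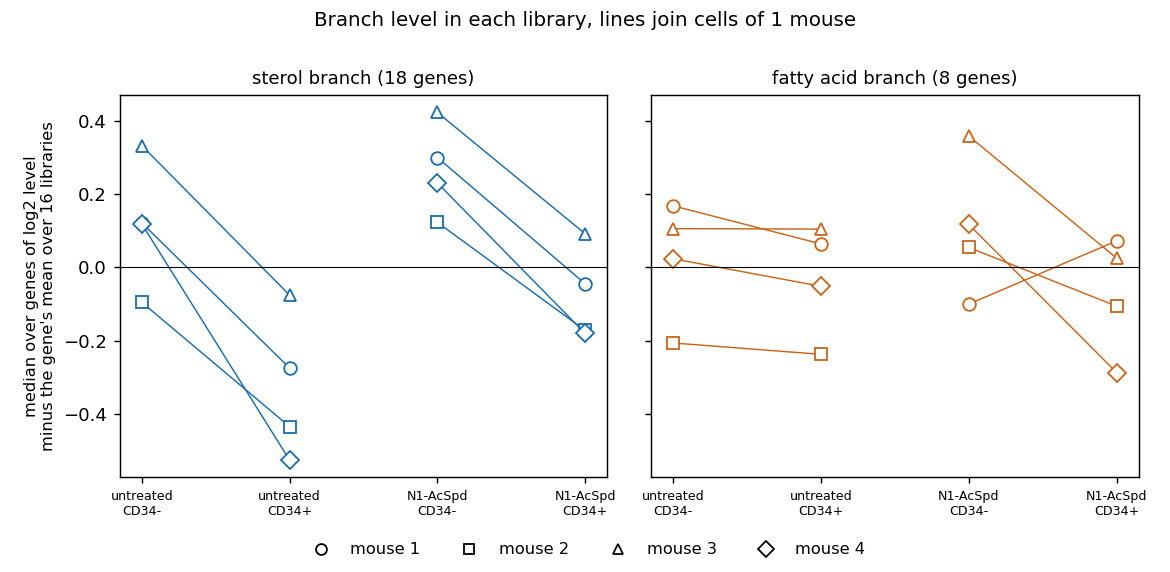
Branch level in each library (y axis, median over the genes of a branch of the log2 level minus the gene's mean over 16 libraries) by group (x axis), with lines joining the fractions of 1 mouse. All 8 lines of the sterol branch fall from CD34- to CD34+ and mouse 3 is highest in each group, whereas the lines of the fatty acid branch are flat in untreated organoids and go both ways with N1-AcSpd.

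Each mouse gave 1 library to each group, so mouse could also enter the fit as a block. Then 19 members were lower in untreated CD34+ cells (17.1% of all genes) and 3 were higher (17% of all genes), and with N1-AcSpd the counts were 17 lower (17.8% of all genes) and 3 higher (17.1%). In untreated cells the block added Acat2, Pmvk, Mvd, Lss, Insig1 and Stard4 to the lower members, with adjusted p-values of 0.0123, 0.0200, 0.0194, 0.00792, 0.00788 and 0.00669 from edgeR. Tm7sf2 lost its call with N1-AcSpd (adjusted p = 0.0677). The untreated count of 15 called members fell to 8 without mouse 1 and to 9 without mouse 4, and the N1-AcSpd count of 14 fell to 9 without either. Leaving out a mouse removes libraries for every gene, and the share of all genes called in these fits is not given here. The falls thus cannot be read as particular to the members.

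Some single calls rested on individual libraries. The untreated calls of Idi1, Fdps and Fdft1 were each lost without CD34- of mouse 3, CD34+ of mouse 2 or CD34+ of mouse 4, that of Sc5d without either fraction of mouse 1, CD34- of mouse 3 or CD34+ of mouse 4, and that of Scd2 in 13 of 20 leave-out fits (those without CD34- of mice 1, 3 or 4 or CD34+ of mice 1, 2 or 4 untreated, without CD34- of mice 1, 2 or 4 or CD34+ of mice 1 or 4 with N1-AcSpd, or without mouse 1 or 4). Idi1 and Fdft1 were also lost without mouse 1, 2 or 4 as a whole, and Fdps and Sc5d without mouse 1 or 4. Over all alternatives the adjusted p reached 0.0964 for Idi1, 0.147 for Fdps, 0.154 for Fdft1, 0.143 for Sc5d and 0.267 for Scd2. With N1-AcSpd, Fdft1, Sc5d and Tm7sf2 were lost in 9, 10 and 12 of 20 such fits, with an adjusted p of up to 0.155, 0.154 and 0.225. For Fdft1 these left out N1-AcSpd CD34- of mice 1, 3 or 4, CD34+ of mice 1, 2 or 4, or mouse 1, 2 or 4 as a whole. For Sc5d they left out untreated CD34+ of mice 2 or 4, N1-AcSpd CD34- of mice 1 or 3, CD34+ of mice 1, 2 or 4, or mouse 1, 2 or 4 as a whole. For Tm7sf2 they left out untreated CD34- of mice 1 or 4, CD34+ of mouse 1, N1-AcSpd CD34- of mice 2, 3 or 4, CD34+ of mice 2 or 4, or any mouse. Whole mice also decided Hmgcs1 in untreated cells (mouse 1, adjusted p up to 0.0950 over all alternatives), Acly in untreated cells (mouse 3 or 4, 0.0622), and Mvk (mouse 1, 0.0882), Idi1 (mouse 1 or 4, 0.0763) and Srebf1 (mouse 3 or 4, 0.0810) with N1-AcSpd. Settings that keep every library ended calls as well. Scaling by library totals ended the untreated calls of Hmgcs1, Fdft1, Sc5d, Acly and Scd2 and the N1-AcSpd calls of Mvk, Fdft1 and Sc5d. Fitting only the groups compared ended the untreated calls of Fdft1, Sc5d and Scd2. Testing without the low-count filter ended the untreated call of Scd2 and the N1-AcSpd calls of Fdft1, Tm7sf2 and Sc5d, and DESeq2 ended that of Tm7sf2. Sqle, Msmo1, Hsd17b7, Ebp, Fasn and Fads1 kept their calls in both conditions under every alternative.

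Other properties of the cells moved with the fraction. The differentiated epidermis list, all 12 of whose genes were lower in CD34+ cells, summed to 1705 to 2336 CPM in untreated CD34- and 432 to 483 CPM in untreated CD34+ libraries, and to 2098 to 2900 and 449 to 610 CPM with N1-AcSpd. Of 8 genes of dividing cells, 7 were higher in CD34+ cells in each condition. The sebocyte list, genes of the lipid-secreting gland cells, summed to 53.7 to 60.8 CPM in CD34- and 66.7 to 78.9 CPM in CD34+ libraries, and 5 of its 12 genes were tested. That rise in the sum rested on Mgst1, a glutathione transferase that other cells also express, which averaged 23.3 against 41.5 CPM in untreated and 19.4 against 46.6 CPM in N1-AcSpd organoids. Of the 5 genes, edgeR called Mgst1 higher and 2 lower in untreated CD34+ cells (median log2 fold change -0.15), and Mgst1 higher and 4 lower with N1-AcSpd (median -0.40), with Cidea at -2.45 and -2.61. Of the 10 genes of the list that were measured, 5 averaged under 1 CPM. The part of these cells in the lipid gene differences was not tested, and in RNA from a bulk fraction fewer cells of a type and less RNA per cell cannot be told apart.

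Exon overlaps bear on some members. Fdps shares nearly all its counts with the same-strand model Gm43738, whose counts were 1.02 to 1.06 times those of Fdps, and Lss with the antisense model 4930483K19Rik (0.953 to 1.00 times), so neither can be assigned to 1 gene. Cyp51 overlaps Akap9, which was higher in untreated CD34+ cells (log2 fold change 0.17, edgeR adjusted p = 0.0178, n = 4), and Fdft1 overlaps Ctsb, which had 7.07 to 11.6 times its counts and a log2 fold change of -0.01. Tm7sf2 shares 532 exon bases on the same strand with Vps51, which had 1.03 to 1.36 times its counts and log2 fold changes of 0.09 (adjusted p = 0.395) and 0.22 where those of Tm7sf2 were 0.18 and 0.22. Srebf1 shares 109 exon bases with Rai1 on the other strand, which had 0.223 to 0.387 times its counts. The log2 fold changes of Rai1 were 0.28 in untreated and 0.10 in N1-AcSpd cells, where those of Srebf1 were 0.17 and 0.26. Scap shares 985 exon bases with the opposite-strand model 5830462I19Rik, which had 0.195 to 0.366 times its counts. Whether counting used strand was not stated, but Lss and its antisense model held nearly equal counts. The antisense model that overlaps Hmgcs1 had 0.0225 to 0.0509 times its counts. Reads in exons shared across strands may thus have counted for both genes, also for Fdft1 with Ctsb and Cyp51 with Akap9. Among the 11 sterol members without any such overlap, 5 were lower and 1 higher in each condition, with medians of -0.46 and -0.34. Of all genes, 16.1% were called in each direction in untreated cells, and 16.8% lower and 16.5% higher with N1-AcSpd.

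Of 19 further sterol genes (transport, storage, efflux and processing of SREBPs), 3 were higher and 3 lower by edgeR in untreated CD34+ cells, where each direction held 16.1% of all genes. The higher ones were Mylip (log2 fold change 1.39), a ligase that degrades lipoprotein receptors, Cyb5r3 (0.68), which passes electrons to sterol and fatty acid oxygenases, and Acat1 (0.57), a mitochondrial thiolase. The lower ones were the efflux transporter Abcg1 (-1.80), the esterifying enzyme Soat1 (-0.89) and Erlin1 (-0.41). With N1-AcSpd the counts were 5 and 5, against 16.5% and 16.8%.

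Of 24 further fatty acid genes tested from a list of 26, 4 were higher and 8 lower by edgeR in untreated CD34+ cells, against 16.1% of all genes in each direction, and 3 and 11 with N1-AcSpd, against 16.5% and 16.8%. The largest decreases in untreated cells were those of Elovl4 (-2.88), which makes the very long chains of barrier ceramides, Dgat2 (-1.69), which makes triglyceride, and Acsl1 (-1.57), which activates fatty acids. The largest increases were those of Lpin1 (0.84), Acsl3 (0.51) and Acsl4 (0.48). Elovl4 was thus lower by more than any member.

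Without mouse as a block, N1-AcSpd gave no called member in either fraction. In CD34- cells, 0 of 32 passed by edgeR (0.614% of all genes) and 0 by DESeq2 (2.57%), and 1 had an unadjusted p under 0.05 (13.6% of all genes). That was Idi1, with a log2 fold change (N1-AcSpd over untreated) of 0.32 ± 0.15 (adjusted p = 0.351, n = 4). The next smallest p-values belonged to Cyp51 (0.29 ± 0.14, adjusted p = 0.375) and Acaca (-0.25 ± 0.14, adjusted p = 0.487). With mouse as a block 1 member, Idi1, was called (0.33, adjusted p = 0.0443), against 1.84% of all genes, and 10 members, all higher, had an unadjusted p under 0.05, against 16% of all genes in either direction.

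In CD34+ cells, edgeR called 0 of 32 (0.325% of all genes) and DESeq2 0 (2.07%). At an unadjusted p under 0.05 there were 7, all higher, against 13.2% of all genes in either direction. The smallest p-values were those of the phosphomevalonate kinase Pmvk (log2 fold change 0.30 ± 0.12, adjusted p = 0.309, n = 4), Scd2 (0.45 ± 0.18, adjusted p = 0.313) and Fasn (0.19 ± 0.08, adjusted p = 0.340). With mouse as a block 1 member, Scd2, was called (0.46, adjusted p = 0.0215), against 0.798% of all genes, and 15, all higher, had an unadjusted p under 0.05, against 15.6%.

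Idi1 and Scd2, the members called under the block, show the size of these differences. Idi1 was at 27.7, 24.2, 33.7 and 27.1 CPM in untreated and at 32.9, 31.3, 40.7 and 36.3 CPM in N1-AcSpd CD34- cells. Scd2 was at 17.9, 15.1, 24.3 and 14.96 CPM in untreated and at 25.3, 20.2, 29.7 and 23.2 CPM in N1-AcSpd CD34+ cells. Each gene was higher with N1-AcSpd in every mouse, and the ranges overlapped only through the untreated library of mouse 3.

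The sterol members leaned the same way. The log2 fold change was positive for 16 of 18 in CD34- cells, with a median of 0.16, and for 17 of 18 in CD34+ cells, with a median of 0.21, where the medians over all genes were 0.00 and -0.01. The fatty acid medians were 0.10 and -0.04, and those of the regulators 0.01 and 0.13. Per mouse, the sterol median was 0.19, 0.22, 0.11 and 0.12 in CD34- cells and 0.23, 0.21, 0.15 and 0.30 in CD34+ cells, positive in all 8 pairs.

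**Figure D5:**
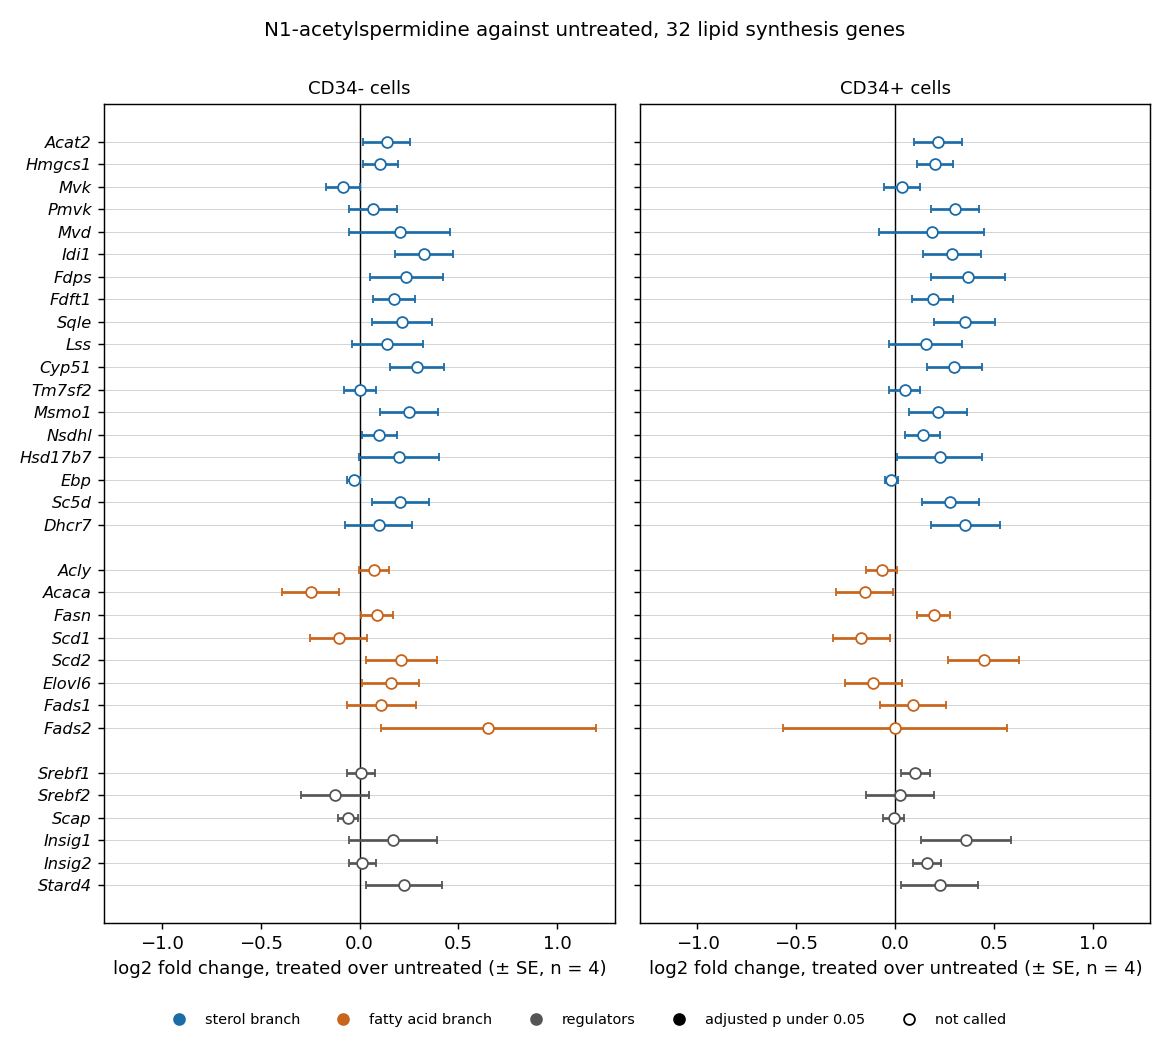
Log2 fold change of N1-AcSpd over untreated cells (x axis, bars are ± SE, n = 4 mice) for each member (y axis) in CD34- (left) and CD34+ cells (right). All points are open, since none passed an adjusted p of 0.05 without the block; 16 and 17 of the 18 sterol members lie right of 0, and the fatty acid members lie on both sides.

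In CD34- cells 11 of 32 members were higher with N1-AcSpd in 4 of 4 mice, against 13.5% of all genes, and in CD34+ cells 16 of 32, against 11.8%. In both fractions of all mice, 11 members were higher, against 5.04% of all genes: Hmgcs1, Idi1, Fdps, Fdft1, Sqle, Cyp51, Msmo1, Sc5d, Fasn, Scd2 and Stard4. Members of 1 pathway do not vary independently of each other, so these counts are descriptions. At most 1 member, Mvk in CD34- cells, was lower in 4 of 4 mice.

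The treatment effect was then averaged over both fractions, a contrast chosen after the values in each fraction were seen. Without the block, edgeR called 0 of 32 members (2.7% of all genes were called higher), DESeq2 called 1, Cyp51 (4.75% higher), and 11 were higher at an unadjusted p under 0.05 (10.6%). With mouse as a block, 12 were called, all higher, against 4.5% of all genes: 10 sterol members (Acat2, Hmgcs1, Pmvk, Idi1, Fdps, Fdft1, Sqle, Cyp51, Msmo1 and Sc5d), Fasn and Scd2. Their log2 fold changes in that fit ran from 0.14 for Fasn to 0.34 for Scd2, with edgeR adjusted p-values from 0.00533 for Scd2 to 0.0477 for Sc5d (n = 4). Removing untreated CD34+ of mouse 3 gave 2 calls without the block, and removing mouse 3 gave 1. For these reduced fits the share of all genes called is not given here. Among sterol members without exon overlaps, 5 of 11 were called higher with the block, against 4.5% of all genes.

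Marker lists also leaned with treatment, as 11 of 12 differentiated epidermis genes had a positive log2 fold change in each fraction, with medians of 0.35 in CD34- and 0.31 in CD34+ cells. By edgeR 0 of the 12 were called in either fraction, with 5 higher at an unadjusted p under 0.05 in each, while DESeq2 called 2 in CD34- and 1 in CD34+ cells and the block 1 and 0. Averaged over both fractions, 12 of 12 were positive with a median of 0.30, and edgeR called 3 higher, DESeq2 4 and the block 3. Their sum ran from 1705 to 2336 CPM in untreated and from 2098 to 2900 CPM in N1-AcSpd CD34- libraries. In CD34+ cells all 8 genes of dividing cells were positive, with a median of 0.13. In CD34- cells 3 of these 8 were positive, with a median of -0.01. Their part in the sterol values was not tested. Among other lipid genes, Acss2 (0.33), which makes acetyl-CoA from acetate, and Agpat2 (0.42), which acylates lysophosphatidic acid, were called higher in CD34- cells (edgeR adjusted p = 0.0205 and 0.0408, n = 4), and edgeR called none in CD34+ cells. Averaged over both fractions, edgeR called 0 of the 19 further sterol genes higher and 2 lower. Of the 24 further fatty acid genes it called 4 higher and 0 lower, where 514 and 414 of all 19049 genes were called. With mouse as a block, the sterol counts were 1 and 2 and the fatty acid counts 4 and 0.

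The treatment effect did not differ detectably between fractions for any member. For the interaction, edgeR called 0 of 32 members (0% of all genes), DESeq2 0 (0.373%), and the block called 0. At an unadjusted p under 0.05 there were 0 members without the block, where 4.19% of all genes passed, and 2 with it, Pmvk and Scd2, where 5.15% did. The smallest p-values belonged to Insig2 (0.15 ± 0.10), Pmvk (0.23 ± 0.17) and Elovl6 (-0.27 ± 0.20), each with an adjusted p of 1.00 in edgeR (n = 4). The sterol median was 0.04 and the fatty acid median -0.04.

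Mice differed in the level of these genes whatever the fraction or treatment. The same mouse gave the highest value in all 4 groups for 15 of 32 members, against 4.59% of all genes. In 14 of them that was mouse 3, which had this rank for 0.861% of all genes. They were the sterol members Acat2, Hmgcs1, Mvd, Idi1, Fdps, Fdft1, Sqle, Cyp51, Msmo1 and Dhcr7, together with Fasn, Scd2, Scap and Insig1. The sterol branch level of mice 1 to 4 was 0.12, -0.10, 0.33 and 0.12 in untreated CD34- cells and -0.28, -0.43, -0.08 and -0.53 in untreated CD34+ cells. It was 0.30, 0.12, 0.42 and 0.23 in N1-AcSpd CD34- cells and -0.05, -0.17, 0.09 and -0.18 in N1-AcSpd CD34+ cells. Mouse 3 was highest in each group, and in mouse 3 the CD34+ level with N1-AcSpd was close to the CD34- level of other mice without it. The labels give nothing else by which mouse 3 differs, and a donor cannot be told apart from its own cell preparation and culture. Mouse 3 was singled out from its values. Members of 1 pathway do not vary independently of each other, so these counts too are descriptions.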

How the data were processed

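The labels gave the groups and the mouse behind each replicate number, 1 mouse having the same number in all 4 groups. Over all tested genes, same-mouse libraries of different groups deviated from their group means with a mean r of 0.013 (from -0.069 to 0.086 over 24 pairs). Libraries of different mice and groups had a mean r of -0.0044 (from -0.081 to 0.119 over 72 pairs), so the ranges overlapped. No library was a copy of another (chi-square per degree of freedom at least 25.4). The authors demultiplexed reads with FLEXBAR, mapped second reads to mm10 with Kallisto (0.45.0 in the submitters' notes) after FastQC 0.11.7, assigned them with BEDTools and deposited unique UMI counts per gene, not normalized. The 156050 empty cells were read as 0. Genes averaging 5 or more counts over the libraries (19049) entered edgeR 4.0.16, run in R 4.3.3 (TMM, quasi-likelihood F test, 1 fit of all 16 libraries, 1 mean per group, two-sided p-values adjusted over all genes). The SE was derived from the log2 fold change and its F statistic. Alternatives were DESeq2 1.42.0 (also used by the authors), other scalings and filters, mouse as a block, only the groups compared, and leaving out each library or mouse. Procedures were tested on simulated data. Members and lists were chosen with earlier results of these data known. Per-library values were given for the 4 sterol and 3 fatty acid members with the largest untreated cell type effect, for the named regulators, and for Ebp, Idi1 and Scd2, added after their values were seen.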

Additional observations from a re-analysis of the deposited data

Results flagged for a closer look

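In 5 of 136 groups examined (each member in each group, and the library summaries), 1 library stood far from the other 3 of its group by Dixon's criterion, and chance alone marks about 5% of groups of this size. Acat2 was at 17.8 CPM in untreated CD34+ cells of mouse 3, where the others ran from 14.7 to 14.9 CPM. Hmgcs1 was at 50.05 CPM in N1-AcSpd CD34- cells of mouse 3, with the others at 42.3 to 42.9 CPM. Scd1 was at 7.37 CPM in untreated CD34+ cells of mouse 3, with the others at 5.09 to 5.38 CPM. Acaca was at 5.27 CPM in N1-AcSpd CD34+ cells of mouse 1, with the others at 4.29 to 4.42 CPM. Fads2 was at 0.330 CPM in N1-AcSpd CD34- cells of mouse 1, below the others at 0.492 to 0.497 CPM. Of the 5, 3 came from mouse 3.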

How the results depend on the processing

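Scaling by library totals moved the median of all genes to 0.14 in the untreated and 0.11 in the N1-AcSpd cell type comparison. With it the sterol medians were -0.35 and -0.26 and the untreated fatty acid median 0.12, and the members called 12 and 13. Mouse as a replicate block moved the members called to 1 in each treatment comparison and to 12 in the average of both fractions, where DESeq2 gave 1.

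Leaving out libraries or mice gave 8 to 19 called members for untreated and 9 to 17 for N1-AcSpd cell types, and 0 to 2 for the averaged treatment effect. The shares of all genes called in these fits are not given here. The sterol medians ran from -0.55 to -0.36 (untreated cell types), from -0.44 to -0.33 (N1-AcSpd cell types), from 0.085 to 0.24 (treatment, CD34-), from 0.15 to 0.35 (treatment, CD34+), from 0.0048 to 0.18 (interaction) and from 0.15 to 0.24 (averaged treatment). The untreated fatty acid median ran from -0.082 to 0.086. It turned negative without mouse 3 (-0.068), without its CD34+ library (-0.082) and without the CD34- library of mouse 2 (-0.046), and also by DESeq2 (-0.020), its size factors in edgeR (-0.015), the replicate block and no low-count filter, so no direction is given for it. The fatty acid medians ran from -0.22 to 0.04 in N1-AcSpd cell types and from -0.11 to 0.05 for treatment in CD34+ cells.

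For the 41 values of called members and of the 3 smallest p-values per treatment comparison, the direction held in all 1101 alternative fits, and of these 93 lost and 9 gained a call; the cause was not tested. Depth limits Fads2 and Mvd most, which have the fewest counts.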
